A study of Mus musculus with 3 samples.

Results

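Insulin-like growth factor (IGF) axis genes were followed across the cell classes of mouse dorsal skin and across 3 single-cell libraries. The members were the ligand genes Igf1 and Igf2, the receptor gene Igf1r and the binding protein genes Igfbp2, Igfbp3, Igfbp4, Igfbp5, Igfbp6 and Igfbp7. They were chosen by name from the gene table, and all 9 were found among 32285 genes. IGF1 and IGF2 are secreted peptides that signal through the receptor tyrosine kinase IGF1R, which acts on PI3K, AKT and MAP kinases and supports growth and survival. The high-affinity binding proteins hold the ligands in the matrix or the circulation, and proteases such as PAPP-A release them. In skin, dermal fibroblasts are a known source of IGF1 for keratinocytes, which carry the receptor.

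The skin came from wild type C57BL/6J mice labelled as female and as 8 weeks old. The study's methods give that age for the mice as purchased, so irradiated skin was taken at a later age. CON skin was not irradiated. UV skin was irradiated on alternate days over 12 weeks with UVA (315 to 400 nm, 0.6 mW/cm2) plus UVB (290 to 315 nm, 3.5 mW/cm2). Rux skin received the same irradiation, each time followed at once by an ointment with 1.5% ruxolitinib, an inhibitor of the kinases JAK1 and JAK2. CON and UV mice were given the vehicle alone, by the description of the study groups. Full-thickness skin was taken a day after the last exposure and dissociated, and the number of mice behind each library was not given in the sources used here. Each condition was 1 library, so no difference had a replicate check and no test was made. The intervals given are 95% intervals of counting error, exact Poisson for a level and exact conditional binomial for a ratio. They treat each UMI as independent and leave out the spread between cells and between mice. Intervals that do not overlap are therefore apart in counting error only.

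The libraries held 13170, 12411 and 11287 barcodes in CON, UV and Rux, of which 10777, 10231 and 9299 cells were kept, with a median of 7540, 7639 and 9430 UMIs (transcript molecules) per cell. Between 28 and 50 barcodes were shared by a pair of libraries. All 3 libraries went against the label of sex: Xist stood at 0.0927 to 0.12 CPM and the Y-linked Ddx3y at 111 to 121 CPM (UMIs of a gene per 1000000 UMIs). Clusters were named from fixed marker genes as X-like classes. FB-like (fibroblast) cells numbered 3350, 4960 and 4676 in CON, UV and Rux, and KER-like (keratinocyte) cells 2036, 721 and 789. VEC-like (vascular endothelial) cells numbered 405, 476 and 181. PCY-like cells, led by Myh11, Rgs5 and Acta2 and so of mural type, numbered 208, 244 and 114. All 6 FB markers, 12 KER markers, 7 VEC markers and 7 PCY markers had UMIs in their class in every library. The same markers named the classes, so this is no separate check. FB-like cells also had UMIs of all 12 KER, 7 VEC and 7 PCY markers. These summed to 689, 28.2 and 113 CPM in CON, against 34090 for the FB markers. Of 47 clusters, 10 kept no name and held 20.7% of the cells. Levels are given as CPM over the UMIs of the class, and apply within a class, so a class with fewer cells is not by that reason lower.

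The members lie on 6 mouse chromosomes (build GRCm38). Igfbp2 (chr1:72824503-72852474, plus strand) and Igfbp5 (chr1:72857932-72874884, minus strand) are neighbours that face each other with 5457 bases between their ends. Igf2 (chr7:142650766-142666816, minus strand) and Igf1r (chr7:67952827-68233668, plus strand) share a chromosome, as do Igfbp3 (chr11:7206086-7213923, minus strand) and Igfbp4 (chr11:99041244-99054392, plus strand). Igf1 is at chr10:87858265-87937042 on the plus strand, Igfbp6 at chr15:102144362-102149511 on the plus strand and Igfbp7 at chr5:77349240-77408041 on the minus strand. A promoter was found in RefSeq (GRCm38.p6) for all 9 members. Those of Igfbp2, Igfbp5 and Igfbp3 are shown over the 250 bases before the start, the neighbouring pair because their cell patterns differed, and Igfbp3 because it was higher after irradiation in several classes. Capitals mark matches, on either strand, to GGGCGG (GC box), TATANA (TATA-like), TGANTCA (AP-1) or TTCNNNGAA (STAT). Overlapping matches were merged.
Igfbp2, chr1:72824230-72824479, plus strand: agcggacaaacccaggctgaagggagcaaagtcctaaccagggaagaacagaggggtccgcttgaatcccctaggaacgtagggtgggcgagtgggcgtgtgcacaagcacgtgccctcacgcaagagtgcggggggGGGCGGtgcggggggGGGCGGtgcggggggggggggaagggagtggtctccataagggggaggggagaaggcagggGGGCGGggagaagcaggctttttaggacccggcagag
Igfbp5, chr1:72874866-72875115, minus strand: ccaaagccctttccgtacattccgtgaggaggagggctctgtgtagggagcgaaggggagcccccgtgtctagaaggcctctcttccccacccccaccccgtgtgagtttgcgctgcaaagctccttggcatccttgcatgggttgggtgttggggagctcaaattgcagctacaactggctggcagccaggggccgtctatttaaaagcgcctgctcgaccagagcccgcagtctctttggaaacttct
Igfbp3, chr11:7213924-7214173, minus strand: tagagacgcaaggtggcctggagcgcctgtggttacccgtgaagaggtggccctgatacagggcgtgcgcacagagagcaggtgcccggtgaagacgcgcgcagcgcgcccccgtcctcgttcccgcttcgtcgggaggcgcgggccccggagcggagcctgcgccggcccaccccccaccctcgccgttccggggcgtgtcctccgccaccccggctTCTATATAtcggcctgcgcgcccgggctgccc
The Igfbp2 window held 3 GC boxes, a motif present in 32.7% of all 32851 RefSeq promoter windows. The Igfbp3 window held 2 overlapping TATA-like matches, a motif present in 22.6%. The Igfbp5 window held none of the 4 motifs. The STAT motif (7.02% of all windows) was in no member's window, and the AP-1 motif (6.75%) was in that of Igf1 and in the window of a second Igfbp2 start. A match is a run of letters and was not tested for binding.

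Among the 9 classes of 100 or more cells per library, the class with the highest level was not the same for all binding proteins. Igf1, Igfbp2, Igfbp3 and Igfbp6 had their highest level in FB-like cells in all 3 libraries, Igfbp5 in PCY-like cells and Igfbp7 in VEC-like cells. For Igfbp2 in UV the lead rested on 1 cell with 35.8% of the UMIs. Without the richest cell of each class it stood at 16.1 CPM in FB-like and 20.2 in KER-like cells. Igf1r was highest in IRS-like cells, the inner root sheath and shaft cells of the hair follicle. Igf2 was low in every one of these classes, and Igfbp4 was led by PCY-like or FB-like cells according to the library.

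**Figure D1:**
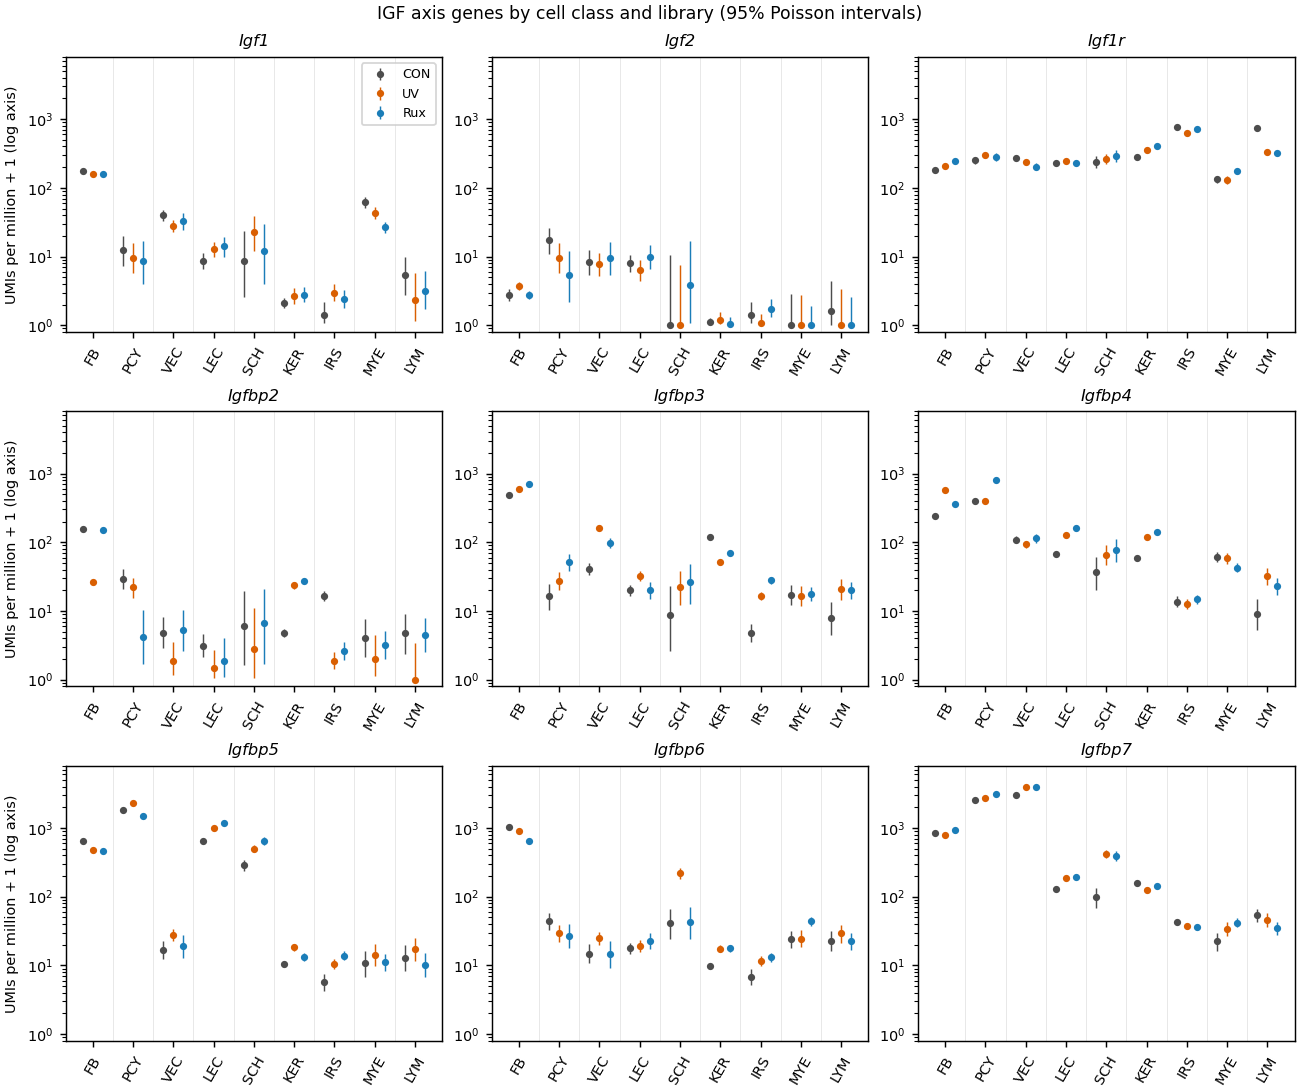
Level of each IGF axis gene (CPM plus 1, log axis) in 9 cell classes, with a point per library and its 95% Poisson interval. Igfbp6 stood at 646 to 1020 CPM in FB-like cells, Igfbp7 was highest in VEC-like cells, and the fall of Igfbp2 in the UV library is seen in FB-like cells.

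Igf1, the main growth factor ligand, stood at 174 CPM in FB-like cells in CON (168 to 179), 158 in UV (154 to 162) and 158 in Rux (155 to 162). The UV and Rux values overlapped, and CON was slightly above both. MYE-like (myeloid) cells had 60.7, 42.6 and 25.8 CPM and VEC-like cells 38.9, 27.2 and 31.7 CPM. The MYE-like level was second in CON and UV, and in Rux the intervals of these classes overlapped. KER-like cells had 1.1, 1.65 and 1.78 CPM and IRS-like cells 0.397, 1.96 and 1.42, so the epithelium held almost none. After thinning every cell to 2000 UMIs, 26.1%, 23.3% and 20.7% of FB-like cells had an Igf1 UMI, against 0.247% to 0.515% of KER-like cells. Without thinning the CON share in FB-like cells was 47.9%, at a median depth of 6037 UMIs against 13270 in KER-like cells. The small MP-like class (myogenic progenitors) had 62.1, 162 and 265 CPM, from 156, 53 and 28 cells.

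Igf2, the fetal growth factor ligand that is mostly silenced after birth, was detected at 1.76, 2.71 and 1.74 CPM in FB-like cells. PCY-like cells had 16.2, 8.66 and 4.33 CPM, from 20, 14 and 4 UMIs, and their intervals overlapped those of VEC-like cells in every library. Between 6 and 7 of the 8 neighbouring classes in its order overlapped. No UMI was found in MYE-like cells in any library, which at 3 counts allows a thinned share of up to 1.17%, 1.31% and 0.701% of cells in CON, UV and Rux. The MP-like cells stood at 75.7, 33.4 and 25.6 CPM (53.8 to 104 in CON). The clusters that kept no name held 52.2%, 56.3% and 40.4% of all Igf2 UMIs, and among them cluster 17, described below, had 30.3, 36.2 and 64.3 CPM.

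Igf1r, the receptor, was found in each of the 9 classes. It stood at 768, 630 and 710 CPM in IRS-like cells and at 129 to 173 CPM in MYE-like cells, the lowest of the 9 classes. LYM-like (lymphocyte) cells had 742 CPM in CON (701 to 786), overlapping the IRS-like value, and 331 and 320 in UV and Rux. Among PCY-, VEC-, SCH- (Schwann) and LEC-like (lymphatic endothelial) cells the CON and UV values lay between 231 and 296 CPM, and 5 of the 8 neighbouring classes overlapped in each of these libraries. The NEU-like cells (neutrophils), a class of 50, 22 and 229 cells, carried 2098 (1854 to 2364), 2103 (1697 to 2576) and 2290 (2184 to 2399) CPM. MC-like (mast) cells had 497, 740 and 712 CPM from 62, 169 and 208 cells. The clusters without a name held 58.3%, 48.0% and 31.3% of all Igf1r UMIs. The level among them was high in cluster 6, with markers of both keratinocytes and inner root sheath, at 920, 754 and 898 CPM.

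Igfbp2, a binding protein for both ligands, stood at 156 CPM in FB-like cells in CON, 25.03 in UV and 152 in Rux. In UV its interval (23.5 to 26.7) overlapped that of KER-like cells (20.2 to 25.1). The next level in CON was 28.3 CPM in PCY-like cells, where 1 cell held 85.7% of the 35 UMIs. The clusters that kept no name held 37.6%, 55.3% and 21.8% of all Igfbp2 UMIs in CON, UV and Rux. Over all kept cells Igfbp2 stood at 44.3, 26.6 and 91.3 CPM. Igfbp3, the main carrier of IGF in serum, had 493, 601 and 714 CPM in FB-like cells, against 119, 49.9 and 67.7 in KER-like cells and 39.7, 162 and 95.7 in VEC-like cells. Thinned to 2000 UMIs, 36.7%, 45.4% and 45.5% of FB-like cells had an Igfbp3 UMI.

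Igfbp4, an inhibitory binding protein cleaved by PAPP-A, had 243, 579 and 365 CPM in FB-like cells and 398, 404 and 816 in PCY-like cells. FB-like cells led in UV and PCY-like cells in CON and Rux, each time with intervals apart. Igfbp5, a binding protein that adheres to matrix, had 1795, 2291 and 1501 CPM in PCY-like cells and 651, 989 and 1173 in LEC-like cells. FB-like cells had 644, 483 and 454, and SCH-like cells 285, 499 and 638. In KER-, VEC-, MYE-, IRS- and LYM-like cells it stayed between 4.63 and 26.6 CPM.

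Igfbp6, which prefers IGF2, had 1020, 887 and 646 CPM in FB-like cells. The second class stood at 42.8 CPM in CON (PCY-like), 218 in UV (SCH-like) and 42.8 in Rux (MYE-like). In the UV SCH-like cells 3 cells held 75.4% of the 122 UMIs. Outside FB- and SCH-like cells 1.61% to 9.11% of thinned cells had an Igfbp6 UMI, against 65.2% to 75.5% of FB-like cells, and RNA set free by other cells can give UMIs at the low end of that range. Igfbp7, a protein with the IGFBP fold that binds IGF weakly, had 2995, 3964 and 3900 CPM in VEC-like cells. PCY-like cells had 2510, 2731 and 3065 CPM and FB-like cells 831, 778 and 942, with no overlap between these 3 classes.

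FB-like cells were compared first, since they held 76.1% to 88.4% of the Igf1 UMIs and 85.0% to 90.4% of the Igfbp6 UMIs of a library. A gene was called when its CPM differed at least 1.5-fold between 2 libraries, among 8185 genes whose CPM averaged 10 or more over the libraries and which had 20 or more UMIs. Of the 9 members 8 passed this filter, and Igf2 did not. In UV over CON, 1 member was called higher and 1 lower, where 6.54% of all tested genes were called higher and 7.72% lower. The median log2 ratio was -0.12 over the 8 members and -0.09 over all tested genes.

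Igfbp4 was the member called higher, from 243 to 579 CPM, a log2 ratio of 1.25 with an upper bound of 1.29, a 2.38-fold difference. Igfbp2 was the member called lower, from 156 to 25.03 CPM, a log2 ratio of -2.64 (6.22-fold). Igfbp5 went from 644 to 483 CPM (log2 ratio -0.42), Igfbp6 from 1020 to 887 (-0.20) and Igfbp3 from 493 to 601 (0.28), all under the fold. Igf1r went from 178 to 210 CPM (0.24). Igf1 (-0.14) and Igfbp7 (-0.09) lay close to the median of all genes. The sum of 14 immediate-early genes, which also rise during dissociation, stood at 23180 CPM in CON and 10920 in UV in the same cells, and its part in these ratios was not tested.

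In Rux over UV, 1 member was called higher and 1 lower in FB-like cells, where 3.34% of tested genes were called higher and 5.36% lower. They were the same 2 genes with their order turned: Igfbp2 rose from 25.03 to 152 CPM (log2 ratio 2.60, 6.06-fold) and Igfbp4 fell from 579 to 365 (-0.67). These 2 comparisons share the UV library, so an extreme value there moves them in opposite directions. Igfbp6 went from 887 to 646 CPM (-0.46), and Igf1 stood at 158 CPM in both (0.01, upper bound 0.06).

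Between Rux and CON, Igfbp4 was called higher (243 to 365 CPM, log2 ratio 0.59) and Igfbp6 lower (1020 to 646 CPM, -0.66), where 7.49% of tested genes were called higher and 10.2% lower. Igfbp4 was just past the fold (1.50), and Igfbp3 (493 to 714 CPM, 0.53, 1.45-fold) was just inside it. Igfbp2 differed by a log2 ratio of -0.04 with an upper bound of 0.02. With the subclusters described below weighted as in CON, both calls were lost (Igfbp4 0.19, Igfbp6 -0.47), and Igfbp2 (1.15, 2.22-fold) and Igfbp3 (0.97, 1.96-fold) passed the fold. Immediate-early genes summed to 11980 CPM in Rux.

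**Figure D2:**
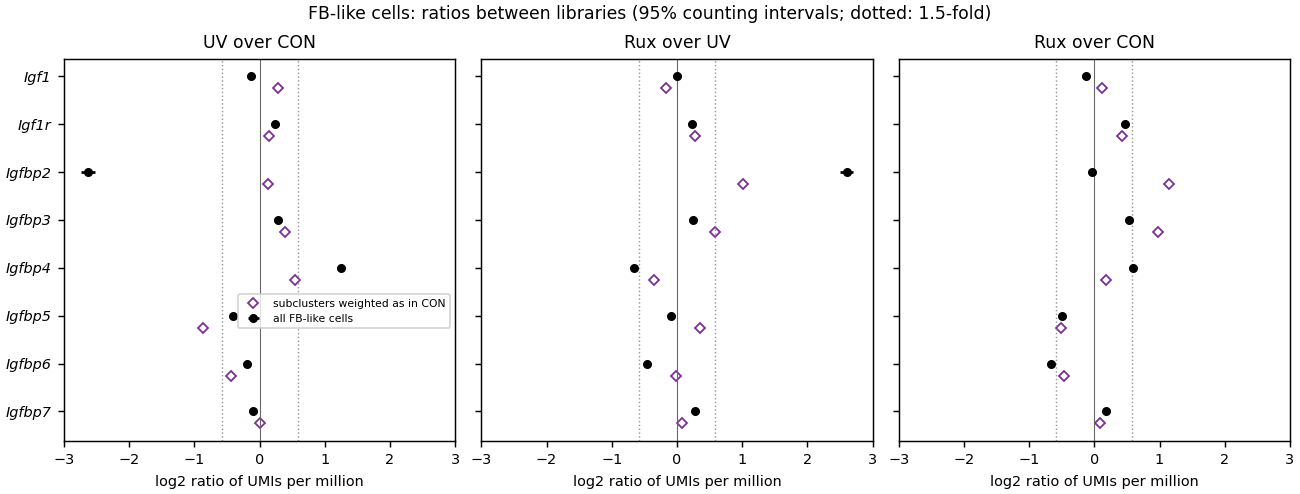
Log2 ratios of CPM between libraries in FB-like cells for the 8 members that passed the filter, with 95% counting intervals (black), and the ratio when each subcluster is weighted as in CON (open diamonds); dotted lines mark 1.5-fold. Igfbp2 moved from -2.64 to 0.13 in UV over CON when the subclusters were weighted, a value that includes the UV cell with 333 of the 834 UMIs of subcluster 8.

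FB-like cells, a mixture of states, were divided into 13 subclusters, with the IGF axis genes left out of the clustering. Igfbp2 was the clearest case. Subcluster 8, led by Igfbp2, Grem1 and F13a1, held 98.0%, 89.6% and 97.8% of the Igfbp2 UMIs of FB-like cells in CON, UV and Rux. It made up 10.99% of FB-like cells in CON (9.95% to 12.1%), 1.21% in UV and 5.62% in Rux, from 368, 60 and 263 cells. Its own Igfbp2 level was 908 CPM in CON, 999 in UV and 2025 in Rux. In UV 1 cell held 333 of its 834 UMIs, and without that cell the level was 616 CPM. All other subclusters lay at 14.7 CPM or lower, except subcluster 12 with 62.9 in UV and 20.1 in Rux. The UV fall of Igfbp2 over all FB-like cells came with a smaller subcluster 8. With all cells its level there was 908 CPM in CON and 999 in UV. The 616 CPM leaves out a cell in UV but none in CON. In UV 3 cells held 57.9% of the Igfbp2 UMIs of FB-like cells, so no direction within subcluster 8 is read. The part of size and of level in the fall was not tested. With the 11 subclusters of at least 20 cells in every library weighted as in CON, Igfbp2 stood at 248, 272 and 551 CPM. The weighting leaves out subcluster 2, with 36.0% of the CON cells but 18 cells in Rux, and subcluster 10, with no CON cell. Its log2 ratio was then 0.13 in UV over CON and 1.02 in Rux over UV, with the UV value carrying the 1 cell named above. Most cells of subcluster 8 had no Igfbp2 UMI even so: without thinning, so at unlike depth, 29.9%, 21.7% and 36.9% had at least 1.

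Igfbp5 went the other way: small in the whole class, it was lower in UV than in CON in all 11 subclusters with at least 50 cells in both libraries, and past the fold in 10 of them. In subcluster 0, led by Pde4c and Pecam1, it went from 632 CPM in CON to 109 in UV and 232 in Rux. In subcluster 6, led by Angptl7, it went from 933 to 208 and 260. In subcluster 3, led by Mrgprg and Sntg1, it went from 2047 to 960 and 1458. Subcluster 8 was the other one, at 1088, 806 and 890 CPM. Subcluster 12, led by Coch and Crabp1 and left out of that count with 43 CON cells, had 2616, 2701 and 2537 CPM (log2 ratio 0.05 in UV over CON). Weighted as in CON, the FB-like log2 ratio of Igfbp5 was -0.86 in UV over CON (825 to 454 CPM), past the fold. From UV to Rux it was higher in 10 of 11 subclusters, past the fold in 6. All UV ratios share the CON library, whose immediate-early sum was the highest. The subclusters come from the same libraries and are not replicates of a condition. For these counts and those below, the share of all genes past the fold within a subcluster is not given.

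Igfbp3 was higher in UV than in CON in 9 of 11 subclusters, past the fold in 3, and lower past the fold in 1, subcluster 8. From UV to Rux it was higher in 10 of 11, past the fold in 6. In subcluster 4, led by Gdf10, it went from 328 CPM in CON to 622 in UV and 968 in Rux. In subcluster 1, led by Thbs4, it went from 605 to 813 and 1464. The subclusters with almost no Igfbp3 were subcluster 8 (29.5, 18.0 and 32.5 CPM) and subcluster 12 (34.6, 19.5 and 23.7). Weighted as in CON, Igfbp3 stood at 402, 527 and 788 CPM.

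For Igfbp4 in FB-like cells both the sizes of the subclusters and the levels within them differed between libraries, and the part of each was not tested. From CON to UV it was higher in 8 of 11 subclusters, past the fold in 4, and lower past the fold in none. Subcluster 9, led by Mrgprg and Rasgef1c, had 1275, 1251 and 1215 CPM and subcluster 3 had 764, 934 and 933, with 139, 1007 and 463 cells in CON, UV and Rux. Subclusters 5 and 8 had 7.84 to 31.1 CPM. Weighted as in CON, the log2 ratio in UV over CON was 0.53 (1.45-fold) rather than 1.25, just under the fold. Igfbp6 was lower in UV than in CON in all 11 subclusters, past the fold in 5, and stood at 2278, 1318 and 1552 CPM in subcluster 6 and at 1580, 1527 and 1211 in subcluster 9.

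Igf1 was at 28.9 to 46.5 CPM in subclusters 3 and 9 and at 7.10 to 22.5 in subcluster 11. Subclusters 3 and 9 are those described above for Igfbp4, and Igfbp5 stood there between 960 and 2047 CPM. From CON to UV, Igf1 was higher in 9 of 11 subclusters, past the fold in 1, and lower past the fold in none. In subcluster 12, left out of that count, it went from 769 CPM in CON (200 UMIs in 43 cells) to 204 in UV and 170 in Rux. The log2 ratio there was -1.91 (-2.23 to -1.60) in UV over CON. Without its richest cell the CON value was 637.5 CPM. Igf2 was also highest in that subcluster among FB-like cells, at 46.2, 32.1 and 29.2 CPM, from 12, 23 and 16 UMIs. In subcluster 8 Igf1 went from 108 to 235 and 326 CPM. From UV to Rux it was lower in 7 of 11 subclusters, past the fold in 3 (270 to 149 CPM in subcluster 0, 179 to 97.0 in subcluster 1 and 154 to 65.5 in subcluster 5), and in none was it higher past the fold. Igf1r was higher in Rux than in CON in all 10 subclusters compared, past the fold in 3.

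**Figure D3:**
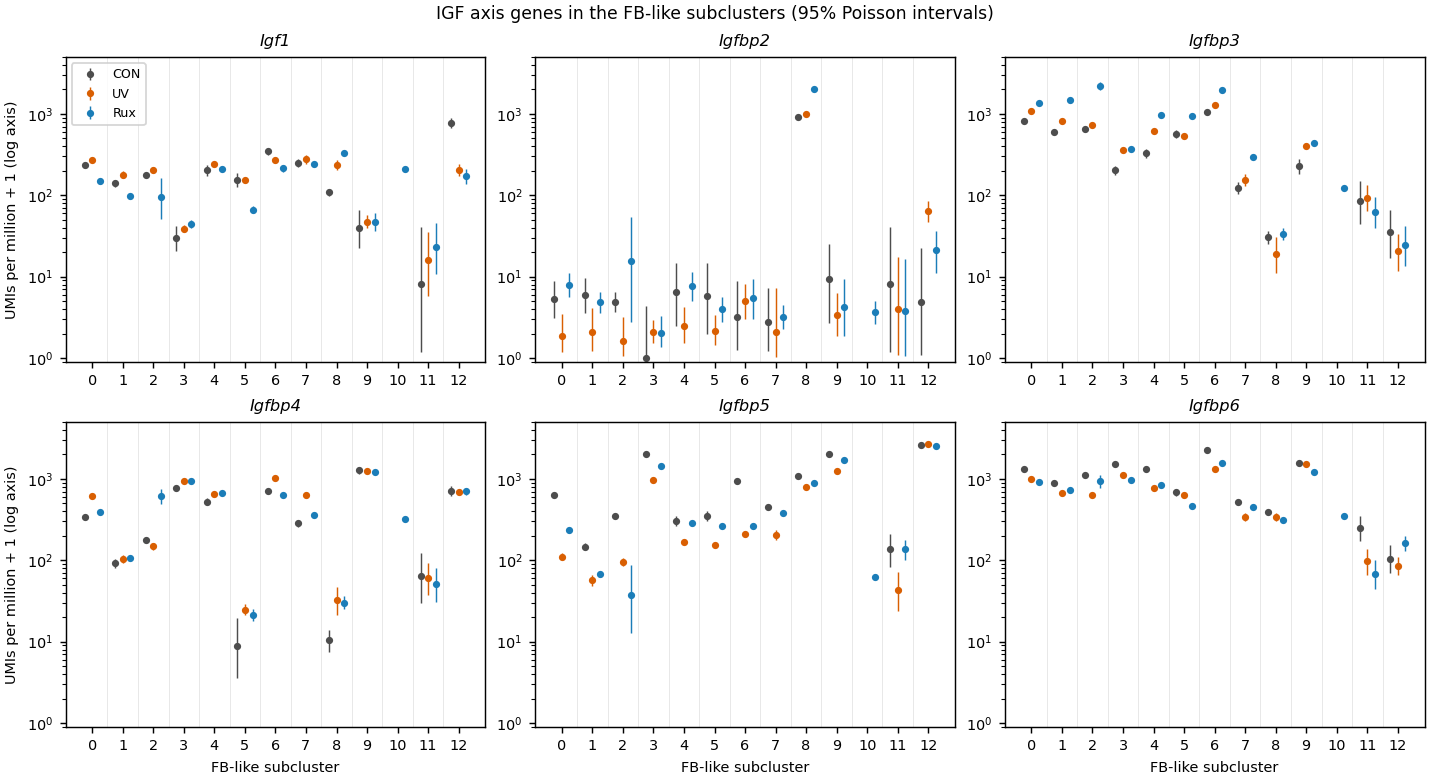
Level of 6 members (CPM plus 1, log axis) in the 13 FB-like subclusters, a point per library with at least 15 cells and its 95% Poisson interval. Igfbp2 stood at 908 to 2025 CPM in subcluster 8, and Igfbp5 was lower in UV than in CON in most subclusters.

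Among other fibroblast-marker or follicle-related clusters, 2 that kept no name had large values. Cluster 15, led by Col11a1, Lrrc15 and Adamts18, with Acta2 and Ednrb, carried Igfbp2 at 729, 637 and 422 CPM in 116, 191 and 371 cells. There Igfbp4 went from 1276 to 2904 and 2589 CPM and Igfbp7 from 1121 to 2196 and 3157. Igfbp5 in this cluster went from 37.1 to 298 and 264 CPM. In cluster 17, led by Lingo2, Adgrb3 and Dcc and holding Hhip and Wif1, Igfbp3 went from 137 CPM in CON to 1902 in UV and 2148 in Rux, in 248, 262 and 91 cells. The log2 ratio in UV over CON was 3.795 (3.69 to 3.90). Without thinning, so at unlike depth, 38.7%, 71.0% and 56.0% of its cells had an Igfbp3 UMI. In CON 1 cell held 43.2% of the Igfbp3 UMIs of this cluster, and the level without it was 78.8 CPM. Igfbp7 in cluster 17 went from 280 to 712 and 822 CPM.

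In KER-like cells 8853 genes were tested, among them 7 members, while Igf1 and Igf2 were under the minimum. In UV over CON 4 members were called higher and 1 lower, where 7.53% of tested genes were called higher and 4.28% lower. Igfbp4 went from 57.4 to 117 CPM (log2 ratio 1.02) and Igfbp2 from 3.75 to 22.6 (2.58, 5.998-fold, 2.30 to 2.88). Igfbp5 went from 9.54 to 17.2 CPM and Igfbp6 from 8.91 to 16.4. Igfbp2, Igfbp5 and Igfbp6 each lay under 10 CPM in CON, so they passed the filter through the irradiated libraries, where they were higher. Their calls are thus partly set by the filter. The thinned share of KER-like cells with an Igfbp2 UMI was 0.395% in CON and 1.97% in UV. The thinned share of KER-like cells with an Igfbp5 UMI was 2.12% to 2.67% over the 3 libraries, against 2.19% to 2.81% of LYM-like cells. For Igfbp6 it was 2.32% to 3.99%, against 1.61% to 6.14%. The Igfbp5 and Igfbp6 shares overlapped those of LYM-like cells, and whether these 2 calls come from KER-like expression was not tested. The classes differ in depth, so thinned shares cannot tell free RNA from expression. Over all kept cells Igfbp6 went from 190 to 312 CPM, and the part of free RNA was not tested. Median depths were 13270 to 15790 UMIs in KER-like and 5393 to 5586 in LYM-like cells.

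Igfbp3 was the member called lower in KER-like cells, from 119 to 49.9 CPM (log2 ratio -1.26). The class held different clusters in the libraries. Cluster 20, led by Clca3a2 and Fcgbp with Col17a1 and Krt15 and so of basal type, numbered 479, 14 and 58 cells and carried Igfbp3 at 514, 168 and 263 CPM. In cluster 9, led by Lhx2, Igfbp3 went from 15.1 to 37.9 CPM, in cluster 11, led by Cst6, from 11.2 to 26.7, and in cluster 37 from 55.8 to 93.5. With the clusters of at least 20 cells weighted as in CON, a choice made after the data were seen, Igfbp3 was higher in UV than in CON (log2 ratio 1.23). That weighting leaves out cluster 20 (14 cells in UV), cluster 33 (231, 8 and 22 cells) and cluster 39 (7, 41 and 141 cells). Under it Igfbp4 was no longer past the fold (0.49) and Igfbp7 was (-0.73).

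Igf1r in KER-like cells stood at 280, 354 and 403 CPM (log2 ratio 0.34 in UV over CON), under the fold. It was highest in cluster 9, at 386, 531 and 606 CPM. Igfbp7 in cluster 9 went from 311 to 180 and 138 CPM, and the whole class had 158, 123 and 142. In Rux over UV no member was called in KER-like cells, where 2.7% of tested genes were called higher and 4.55% lower, and the 7 members lay between -0.50 (Igfbp5) and 0.44 (Igfbp3) on the log2 scale.

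In VEC-like cells 8303 genes were tested, among them 7 members, while Igf2 and Igfbp2 were under the minimum. In UV over CON 3 members were called higher and none lower, where 6.66% of tested genes were called higher and 6.44% lower. Igfbp3 went from 39.7 CPM (32.4 to 48.1) to 162 (149 to 176), a log2 ratio of 2.03 (4.08-fold). It lay in cluster 13, led by Iglc2, Fabp4 and Gpihbp1 and so of capillary type, at 76.3, 209 and 148 CPM, while cluster 28, led by Selp and Sele and so of venous type, had 3.81, 12.2 and 3.99. Within cluster 13 the log2 ratio was 1.45 (1.14 to 1.78). Igfbp5 (15.8 to 26.6 CPM) and Igfbp6 (13.9 to 23.7 CPM) were also called, on 41 to 91 and 36 to 81 UMIs, with thinned shares of 3.71% to 3.94% and 3.94% to 5.06% of cells. In UV 1 cell held 29.7% of the Igfbp5 UMIs, and without the richest cells Igfbp5 stood at 14.7 and 18.8 CPM, under the fold. Igfbp7 went from 2995 to 3964 CPM (0.40), under the fold.

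VEC-like cells had 2 members called lower and none higher in Rux over UV, where 4.43% of tested genes were called higher and 9.45% lower. Igfbp3 went from 162 to 95.7 CPM (log2 ratio -0.76, upper bound -0.49) and Igfbp6 from 23.7 to 13.7. Within cluster 13 Igfbp3 went from 209.5 to 147.5 CPM, under the fold. Cluster 28, with little Igfbp3, numbered 89 of the 476 VEC-like cells in UV and 51 of the 181 in Rux. In Rux 1 cell held 22.6% of the 133 Igfbp3 UMIs. Igfbp7 was level at 3964 and 3900 CPM (-0.02).

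In PCY-like cells 8614 genes were tested, among them every member but Igf1 and Igf2. In UV over CON Igfbp3 was called higher (15.4 to 26.6 CPM, on 19 and 43 UMIs) and Igfbp6 lower (42.8 to 28.5 CPM, on 53 and 46 UMIs), where 12.4% of tested genes were called higher and 9.07% lower. Both intervals of the ratio included 0. Igfbp5 (1795 to 2291 CPM, log2 ratio 0.35) and Igfbp7 (2510 to 2731 CPM, 0.12) were under the fold.

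PCY-like cells had 2 members called higher and 2 lower in Rux over UV, where 8.29% of tested genes were called higher and 11.6% lower. Igfbp4 went from 404 to 816 CPM (log2 ratio 1.01, upper bound 1.17) and Igfbp5 from 2291 to 1501 (-0.61). The UMIs of both were spread over many cells, which are not replicates of a condition. The thinned share was 40.6% and 59.8% for Igfbp4 and 82.1% and 72.0% for Igfbp5. With unnamed clusters given to their best lineage, 1 member was called in this comparison. The calls of Igfbp3 (26.6 to 50.8 CPM) and Igfbp2 (21.0 to 3.24 CPM) rested on single cells. In Rux 1 cell held 53.2% of 47 Igfbp3 UMIs, and in UV 1 cell held 91.2% of 34 Igfbp2 UMIs. Without the richest cell the Igfbp3 log2 ratio was 0.09 and that of Igfbp2 0.33.

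**Figure D4:**
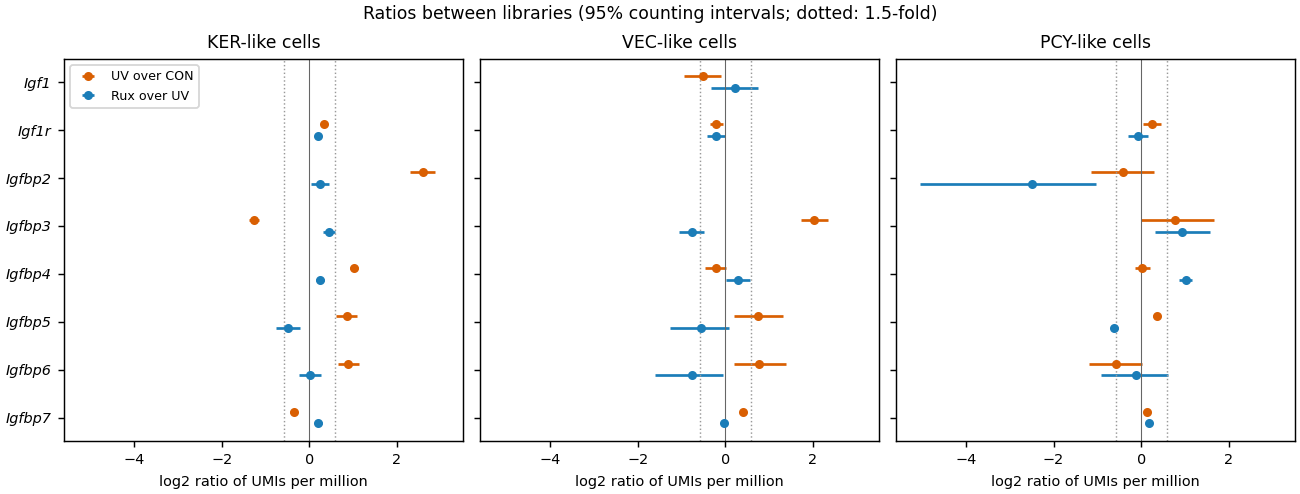
Log2 ratios of CPM in KER-, VEC- and PCY-like cells for the members that passed the filter in each class, UV over CON and Rux over UV, with 95% counting intervals; dotted lines mark 1.5-fold. Igfbp3 stood at -1.26 in KER-like cells and 2.03 in VEC-like cells in UV over CON.

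The remaining classes are described by their levels. In LEC-like cells Igfbp5 went from 651 CPM in CON to 989 in UV and 1173 in Rux and Igfbp4 from 66.0 to 126 and 159. In SCH-like cells, whose median depth was 2541 to 3291 UMIs, Igfbp7 went from 96.6 (68.4 to 133) to 417 and 386 CPM and Igfbp5 from 285 to 499 and 638. In LYM-like cells the fall of Igf1r also stood within cluster 16, led by Icos and Ikzf3, at 975, 387 and 402 CPM in 141, 182 and 294 cells (log2 ratio -1.33 in UV over CON, -1.51 to -1.16). The Trdc cluster, with 603 CPM in CON, had 94, 2 and 1 cells. In MYE-like cells Igf1 lay in cluster 21 (83.7, 60.4 and 53.4 CPM), led by immunoglobulin and class II genes, and hardly in cluster 22 (1.81, 12.0 and 12.0 CPM), led by Lyz2 and Il1b, which numbered 69, 97 and 308 cells. In IRS-like cells Igfbp2 stood at 15.6 CPM in CON and at 0.852 and 1.59 in UV and Rux.

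The other genes of the pathway were read from lists in FB-like cells. The counts stand beside the shares of all tested genes given above: 6.54% higher and 7.72% lower in UV over CON, 3.34% and 5.36% in Rux over UV, and 7.49% and 10.2% in Rux over CON. Among 7 tested receptors and adaptors none was called higher and 2 lower in UV over CON (median log2 ratio -0.15, against -0.09 over all genes). They were Irs1 (57.1 to 35.5 CPM, -0.68) and Irs2 (259 to 161, -0.68), the docking proteins of the receptor. None of the 7 was called in Rux over UV. Grb10, an inhibitory adaptor, stood at 90.6, 121 and 139 CPM and was called higher in Rux over CON (0.61), while Irs1 (-1.01) and Irs2 (-0.65) were lower. Of 11 tested genes of signalling below the receptor none was called in UV over CON or in Rux over UV, and Pik3r1 was lower in Rux than in CON (226 to 127 CPM, -0.83).

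Of 6 tested IGFBP proteases, 2 were called higher and 1 lower in UV over CON. Pappa, the protease that cleaves IGFBP4, went from 23.3 CPM in CON to 8.36 in UV and 37.3 in Rux, with log2 ratios of -1.48 and 2.16. Pappa is among the leading genes of subcluster 8. Htra3 went from 221 to 416 and 543 CPM, and Adam12 from 22.8 to 46.7 and 109. Between UV and Rux 2 were called higher (Pappa and Adam12, 1.22) and Adamts1 lower (795 to 514 CPM, -0.63). Vtn, a carrier, was the only gene tested of 4 on its list and stood at 8.61, 16.2 and 10.8 CPM.

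On the growth hormone route, which drives Igf1 through JAK2 and STAT5B, 7 genes were tested and 1 was called lower in UV over CON and none in Rux over UV. It was Socs2, a STAT5 target, at 111, 55.7 and 55.1 CPM. Cish, also a STAT5 target, stood at 40.5, 36.1 and 25.5 CPM and was called lower in Rux over CON (-0.67). Of 7 tested FOXO-responsive genes 2 were called lower in UV over CON, Txnip (444 to 292 CPM, -0.60) and Bcl6 (55.5 to 34.2, -0.70), and Cited2 was called lower in Rux over UV (-0.61). Ccng2 was the FOXO-responsive gene called higher in Rux over CON (20.1 to 30.2 CPM, 0.59), where Bcl6 and Cited2 were lower. Of 5 genes of the Igf2 locus and of Igf2 mRNA binding 2 were tested, and none was called in any of the 3 comparisons.

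Of the 5 CCN genes, whose proteins share the N-terminal domain of the IGFBPs, Ccn2 was called lower in UV over CON (188 to 88.0 CPM, -1.09) and higher in Rux over UV (164 CPM, 0.90), and Ccn3 higher in Rux over UV (20.03 to 40.9 CPM, 1.03). Of 5 tested fibrillar collagen genes Col1a1 was called lower in UV over CON (7432 to 4014 CPM, -0.89), and in Rux over UV none was called. In Rux over CON Col1a1 (-0.84) and Col1a2 (8828 to 5747 CPM, -0.62) were called lower. Of the 14 immediate-early genes 12 were called lower in UV over CON, with a median log2 ratio of -1.23.

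Over 27 class-by-library profiles of the 9 classes, the genes most like each member by Pearson correlation of log2(CPM + 1) were as follows, a description over profiles that share 3 libraries. Igfbp5 was followed most closely by Cacna2d1 (r = 0.98), Serpine2 (0.95) and Plce1 (0.92). Igfbp6 was followed by Inmt (0.96), Serpinf1 (0.96) and Clec3b (0.955), Igfbp4 by Gstm1 (0.94), Inpp5a (0.90) and Nbl1 (0.89), and Igfbp7 by Hrct1 (0.93), Smim10l1 (0.93) and Apbb2 (0.92). Igf1 was followed by Fam114a1 (0.92), Cmtm3 (0.91) and Tlr4 (0.91), and Igf2 by Tspan12 (0.95), Adamts4 (0.92) and Gng11 (0.91). The likest genes were less close for Igf1r (Sf3b2, 0.88, Ubald1, 0.87, and Eif2b4, 0.86), for Igfbp2 (Cyp1b1, 0.85, Gas1, 0.81, and Irx1, 0.81) and for Igfbp3 (Tmed3, 0.87, Dcun1d3, 0.85, and Ibtk, 0.83).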

How the data were processed

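The data were 3 droplet libraries (10x Genomics 3' v3.1) of mouse dorsal skin, 1 each for CON, UV and Rux. The authors deposited raw UMI counts per gene and cell, aligned to mm10. The study's methods name Cell Ranger 6.1.2, the matrix headers 7.0.0, and whether intronic reads were counted is not given in the sources used here. Cells were kept when they had 200 genes or more and 10% or less of their UMIs from mitochondria. Putative doublets were the cells with the highest Scrublet scores (scanpy 1.11.5), 1269, 1128 and 923 in CON, UV and Rux, and were removed. Their share was set beforehand at 0.8% per 1000 barcodes of the library and was not called by Scrublet. Clusters were built in R 4.3.3 with Seurat 5.3.0 (2000 variable genes without the IGF axis genes, 30 components, resolution 1.5), with FB-like cells divided again at resolution 0.5 on 20 components. Clusters were named from a marker list, and a cluster with markers of 2 classes, or whose leading genes went against its name, was left unnamed. UMIs were summed per class and library and scaled to CPM. Ratios used 0.5 added UMI, and intervals (scipy 1.17.1) of levels and ratios covered counting error only. They leave out the spread between cells, and sampling of mice is in no interval. Shares of cells with a UMI in a class were taken after thinning to 2000 UMIs, with Clopper-Pearson intervals, leaving out shallower cells. Those within a cluster or subcluster were not thinned. Calls needed a 1.5-fold difference, a mean of 10 CPM and 20 UMIs. The genes named were the 9 members, pathway-list genes past the fold in FB-like cells, and the 3 genes most like each member (at least 20 CPM in 1 profile). The members and lists were chosen with earlier results of these data known. The fold calls and ratio intervals of UV over CON in FB-like cells were tried on simulated Poisson counts, which hold no spread between cells. Clustering, naming, thinning and weighting were not tried in that way. Alternatives covered cell filters, doublets, resolution, scaling, weighting, thresholds and single cells.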

Additional observations from a re-analysis of the deposited data

Results flagged for a closer look

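In UV over CON the same gene lay past the fold in opposite directions in different classes, and the differences between classes were not tested. The log2 ratio of Igfbp2 was -2.64 in FB-like and 2.58 in KER-like cells. In KER-like cells it stood at 3.75 CPM in CON and passed the minimum of 10 CPM through the irradiated libraries. With subclusters weighted as in CON the FB-like value was 0.13, which carries the UV cell with 333 UMIs. Igfbp3 stood at -1.26 in KER-like cells, but at 0.77 in PCY-like and 2.03 in VEC-like cells. Its KER-like value changed sign with clusters weighted as in CON, an alternative added after seeing the data. That weighting leaves out cluster 20 (479, 14 and 58 cells), whose own Igfbp3 level was also lower in UV than in CON. The PCY-like value of Igfbp3 rested on 19 and 43 UMIs with an interval that included 0. Igfbp6 stood at -0.59 in PCY-like cells but at 0.88 in KER-like and 0.76 in VEC-like cells. The PCY-like Igfbp6 value rested on 53 and 46 UMIs with an interval that included 0, and the VEC-like value on 36 and 81 UMIs. The share of KER-like cells with an Igfbp6 UMI overlapped that of LYM-like cells over the libraries, at unlike depth.

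In Rux over UV the same was seen for 3 genes, again with no test of the difference. The log2 ratio of Igfbp2 was 2.60 in FB-like and -2.50 in PCY-like cells, where 1 cell held 91.2% of the UV UMIs. Igfbp3 stood at -0.76 in VEC-like cells and at 0.93 in PCY-like cells, where 1 cell held 53.2% of the Rux UMIs. Within VEC-like cluster 13 it went from 209.5 to 147.5 CPM, under the fold. The log2 ratio of Igfbp4 was -0.67 in FB-like and 1.01 in PCY-like cells. The UMIs of both were spread over many cells, which are not replicates of a condition. With subclusters weighted as in CON the FB-like value was -0.35, under the fold.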

How the results depend on the processing

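Each class and condition was 1 library, so mouse, dissociation and condition cannot be told apart, and depth limits Igf2 and the small classes. No paired analysis was possible because each group has 1 library. The 4 members highest in FB-like cells became 3 with the loose filter or with unnamed clusters assigned, and the 7 found in 10% of them or more stayed 7 without thinning. Of 66 member ratios, no doublet removal moved 35, equal weight per cell 31 and unnamed clusters assigned 25 (2 more reversed). The strict filter moved 20 (1 more reversed) and median-of-ratios scaling 16. With the loose filter, resolution 0.8, IGF genes kept, other totals or without the richest cell (1 more reversed), 6 or fewer moved. The other alternatives covered 1 class each. In FB-like cells, subclusters weighted as in CON moved 22 ratios, reversed 1 and left 1 the same. The 1 reversed was a called value, and ratios under the fold that also changed sign are listed below. Adding the unnamed fibroblast-marker and Wif1 clusters moved 23 and left 1 the same. In KER-like cells, clusters weighted as in CON moved 8, reversed 1 and left 5 the same.

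Counts of members called moved as follows, the cause not being tested. In FB-like cells the 2 calls of UV over CON were lost with subclusters weighted as in CON (Igfbp2 0.13, Igfbp4 0.53), where the 1 call was Igfbp5 (-0.86). The 2 of Rux over UV became 1 under that weighting, which lost Igfbp4 (-0.35). They also became 1 with unnamed clusters given to their best lineage, at 2-fold, or with the unnamed fibroblast-marker and Wif1 clusters added. The 2 of Rux over CON became 1 with either other cell filter, at resolution 0.8, with equal weight per cell or with those clusters added, and 0 at 2-fold. In KER-like cells the 5 calls of UV over CON became 2 at a minimum of 50 CPM and 3 at 2-fold. The 0 calls of Rux over UV became 1 with equal weight per cell, with no minimum, with clusters weighted as in CON or without the richest cell. In VEC-like cells the 3 calls of UV over CON became 1 at 50 CPM or at 2-fold, and 2 without the richest cell (Igfbp5 lost). The 2 of Rux over UV became 1 at resolution 0.8, with unnamed clusters assigned, with equal weight per cell or at 50 CPM, and 0 with no doublet removal or at 2-fold. In PCY-like cells the 2 calls of UV over CON became 1 with the loose filter, no doublet removal or equal weight per cell, 5 with unnamed clusters assigned, and 0 with IGF genes kept for clustering, at 50 CPM or at 2-fold. The 4 of Rux over UV became 2 with the loose filter, at 50 CPM, at 2-fold or without the richest cell, and 1 with unnamed clusters assigned.

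Called values that changed sign on the log2 scale were these. Igfbp2 in FB-like cells was 0.13 in UV over CON with subclusters weighted as in CON, with 1 UV cell holding 333 of 834 UMIs of subcluster 8. Ratios under the fold also changed sign there: Igf1 to 0.28 in UV over CON, -0.16 in Rux over UV and 0.12 in Rux over CON, Igfbp5 to 0.35 in Rux over UV, Igfbp7 to 0.01 in UV over CON and Igfbp2 to 1.15 in Rux over CON. Igfbp3 in KER-like cells was 1.23 in UV over CON with clusters weighted as in CON, an alternative added after seeing the data, as were leaving out the richest cell and adding clusters. The 1.23 does not cover cluster 20, which had 14 cells in UV and whose own Igfbp3 level was lower in UV than in CON. Igfbp6 in PCY-like cells was 0.975 in UV over CON and Igfbp3 -0.19 in Rux over UV with unnamed clusters assigned. Igfbp2 in PCY-like cells in Rux over UV was 0.80 with the strict filter and 0.33 without the richest cell.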
